A study of Rattus norvegicus with 15 samples.

Results

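Nr4a2, Pitx3, Foxa2 and Dlk1 were examined in rat midbrain neurons: 3 transcription factors of the dopamine neuron and a membrane protein known to depend on some of them. All probe sets (groups of short probes against 1 transcript) that the platform annotation assigns to these 4 gene symbols were taken, which gave 5 of the 8740 probe sets that are not controls. Nr4a2 (rat gene ID 54278) had 2 probe sets, L08595_at and U01146_s_at. Pitx3 (29609), Foxa2 (25099) and Dlk1 (114587) had 1 each, AJ011005_at, L09647_at and D84336_at. The symbols were chosen without using any measured value of these probe sets in the rule.

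The series profiled neurons collected by laser capture from the substantia nigra pars compacta (SNc) and from the ventral tegmental area (VTA), 2 neighbouring dopamine regions of the midbrain, on an Affymetrix rat expression array. There were 8 SNc arrays and 7 VTA arrays, numbered 1 to 8 in SNc and 1 to 6 and 8 in VTA. Strain, age, sex, treatment and the way neurons were recognised are not given in the labels, and neither is whether a number stands for an animal. Each p-value thus speaks only of the spread among these arrays, part of which may be technical, and their number limits the precision.

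Nr4a2, also called Nurr1, is an orphan nuclear receptor that dopamine neurons need to form and to keep their transmitter phenotype. Pitx3 is a homeodomain factor that in the brain is largely restricted to these neurons and acts with Nr4a2 on shared targets. Foxa2 is a forkhead factor that acts in the floor plate from which the neurons arise and stays on in the adult midbrain. Dlk1 is a delta-like transmembrane protein, imprinted and expressed from the paternal copy, and work in mouse midbrain places it downstream of Nr4a2 and Pitx3.

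The RefSeq promoter table of rat assembly GRCr8 held all 4 genes. Its entries cover 250 bases before and 50 bases after a start site, and 2 of them are printed: that of Dlk1, the gene the factors are related to below, and that of Nr4a2, the member with the smallest p in the region comparison. Each is given 5′ to 3′ over the 250 bases before the start, with CG dinucleotides, where DNA methylation mostly sits, in capitals. The Dlk1 window is chr6:134192347-134192596 on the plus strand, and its last part overlaps the annotated first bases of the gene (chr6:134192491-134199779). The Nr4a2 window is chr3:62104888-62105137 on the minus strand and lies inside the annotated gene (chr3:62098739-62115926), before an internal start.
Dlk1: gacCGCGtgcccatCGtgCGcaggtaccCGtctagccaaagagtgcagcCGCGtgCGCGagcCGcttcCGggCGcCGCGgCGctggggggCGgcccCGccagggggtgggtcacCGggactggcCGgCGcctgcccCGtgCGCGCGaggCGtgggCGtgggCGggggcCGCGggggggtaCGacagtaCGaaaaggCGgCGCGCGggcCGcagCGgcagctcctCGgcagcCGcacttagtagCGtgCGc
Nr4a2: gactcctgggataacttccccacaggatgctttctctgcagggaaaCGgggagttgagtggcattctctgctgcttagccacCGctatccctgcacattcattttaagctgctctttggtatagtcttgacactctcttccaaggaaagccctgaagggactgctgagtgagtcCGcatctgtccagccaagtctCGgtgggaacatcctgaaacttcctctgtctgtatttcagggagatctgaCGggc
The printed Dlk1 window held 41 CG dinucleotides and the Nr4a2 window 5. Over the whole 300-base entry Dlk1 had 45, more than 98.3% of the promoters in the table, against a median of 7, and 76.0% of its bases were G or C. Pitx3 had 25 CG dinucleotides in 300 bases and Foxa2 had 8.

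The 300-base entries were searched on both strands for 1 motif per factor: AAAGGTCA, to which Nr4a2 binds as a monomer, TAATCC, a homeodomain site of the bicoid type that Pitx3 recognises, and TGTTTAC, a forkhead site. None of the 4 members held any of the 3. Of all 33469 promoters in the table, 1.43% held AAAGGTCA, 7.17% held TAATCC and 3.78% held TGTTTAC. Of 20 known or proposed targets of Nr4a2 and Pitx3 that were in the table, Ddc, which makes dopamine from L-DOPA, held AAAGGTCA, and none held TAATCC or TGTTTAC. These counts say only which letters stand in these short windows.

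The deposited values are array intensities on a linear scale, and probe sets were filtered on their mean log2(intensity + 16) over all arrays, with a limit that corresponds to a signal of 26.3. All 5 member probe sets were above that signal on all 15 arrays. The region difference is the SNc mean of log2(intensity + 16) minus the VTA mean, given with its standard error from limma (SE), so a negative value means a higher signal in VTA. Folds are the antilog of that difference. They compare means of log values, so they can lie above or below the ratio of the printed mean signals, and the offset draws folds of weak signals towards no difference. Of the 5244 probe sets tested, 104 passed an adjusted p of 0.05, or 1.98%, with 44 higher in SNc (0.839%) and 60 higher in VTA (1.14%). When every array was centred on its own median instead, the split was 67 higher in SNc and 37 higher in VTA. None of the 5 member probe sets was among the 104, and none passed the exact permutation test over arrays after adjustment, which 1.3% of probe sets did. None had groups that did not overlap, which 0.858% of all tested probe sets had. At an unadjusted p of 0.05, both Nr4a2 probe sets passed in limma and in the exact permutation test, in a table where 15.4% of all probe sets passed in limma, 9.57% with VTA higher and 5.87% with SNc higher. In captured tissue of this kind, fewer cells of a type and less RNA per cell cannot be told apart.

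The factor with the widest region difference was Nr4a2, and it was the same way round in both probe sets, with VTA higher. For L08595_at the SNc arrays ran from 113.3 to 563.8 with a median of 360.2, and the VTA arrays from 308.9 to 659.4 with a median of 513.5. The groups overlapped: 7 of 8 SNc arrays were below the VTA mean, all 7 VTA arrays were above the SNc mean, and SNc array 5 exceeded 5 of the 7 VTA arrays. The mean signal was 334.4 ± 140.9 (SD, n = 8) in SNc and 499.8 ± 119.4 (SD, n = 7) in VTA. The log2 difference was -0.65 (SE 0.26, 95% interval -1.19 to -0.10), or 1.56-fold higher in VTA (interval 1.07 to 2.28). It passed an unadjusted p (0.0219) but not the adjusted one (limma, adjusted p = 0.228), and the exact permutation test gave p = 0.0364 (two-sided, adjusted p = 0.280).

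The second Nr4a2 probe set, U01146_s_at, separated the regions better. The ending _s_at marks probes that can match more than 1 transcript. Its SNc arrays ran from 179.5 to 293.0 with a median of 239.3, and its VTA arrays from 252.7 to 439.4 with a median of 338.8. All 8 SNc arrays lay below the VTA mean and 5 of 7 VTA arrays lay above the highest SNc array, while VTA arrays 1 and 8 fell within the SNc range. The mean signal was 237.3 ± 39.1 (SD, n = 8) in SNc and 351.0 ± 79.7 (SD, n = 7) in VTA, a log2 difference of -0.52 (SE 0.15, 95% interval -0.84 to -0.20). This is 1.43-fold higher in VTA (interval 1.15 to 1.79). It ranked 182 of 5244 by p (limma, p = 0.00319, adjusted p = 0.0906), and the exact permutation test gave p = 0.00342 (two-sided, adjusted p = 0.0959). The call was therefore missed by both tests after adjustment over all probe sets.

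The 2 Nr4a2 probe sets differed in how they spread within a region. In SNc the highest array was 4.98 times the lowest for L08595_at and 1.63 times for U01146_s_at, and in VTA the ratios were 2.13 and 1.74. Across the 15 arrays they correlated at r = 0.519, and at r = 0.239 (permutation p = 0.366, adjusted p = 0.733 over 10 pairs of member probe sets) once each region was centred on its mean.

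Pitx3 had a smaller difference of the same direction. Its SNc arrays ran from 68.2 to 174.5 with a median of 134.8, and its VTA arrays from 125.4 to 219.9 with a median of 142.0. The groups overlapped widely, with 2 VTA arrays above every SNc array and 3 SNc arrays below every VTA array. The mean signal was 129.6 ± 34.5 (SD, n = 8) in SNc and 154.4 ± 33.0 (SD, n = 7) in VTA. The log2 difference of -0.25 (SE 0.17, 95% interval -0.61 to 0.11; limma, adjusted p = 0.538; exact permutation p = 0.180, two-sided) did not exceed the spread between arrays. Its interval reaches from 1.53-fold higher in VTA to a slightly higher level in SNc, so it does not show that the regions have the same level.

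Foxa2 was the least different of the factors. The SNc arrays ran from 58.9 to 186.9 with a median of 112.8, and the VTA arrays from 89.0 to 177.8 with a median of 127.2. The VTA range lay wholly within the SNc range. The mean signal was 116.5 ± 45.7 (SD, n = 8) in SNc and 124.9 ± 32.9 (SD, n = 7) in VTA, with a log2 difference of -0.13 (SE 0.21, 95% interval -0.57 to 0.31; limma, adjusted p = 0.816; exact permutation p = 0.562, two-sided).

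Dlk1 was the only member with the higher mean in SNc. Its SNc arrays ran from 217.0 to 396.7 with a median of 239.2, and its VTA arrays from 129.1 to 285.1 with a median of 196.3. All 8 SNc arrays were above the VTA mean and 5 of 7 VTA arrays were below the SNc mean, but VTA arrays 4 and 5 lay inside the SNc range. The mean signal was 260.4 ± 60.7 (SD, n = 8) in SNc and 203.9 ± 56.5 (SD, n = 7) in VTA. The log2 difference was 0.35 (SE 0.17, 95% interval -0.02 to 0.71), or 1.27-fold higher in SNc (interval 0.988 to 1.63). It passed neither test (limma, p = 0.0604, adjusted p = 0.345; exact permutation p = 0.0650, two-sided, adjusted p = 0.349). SNc array 4 held the highest value, and without it the log2 difference was 0.26.

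**Figure D1:**
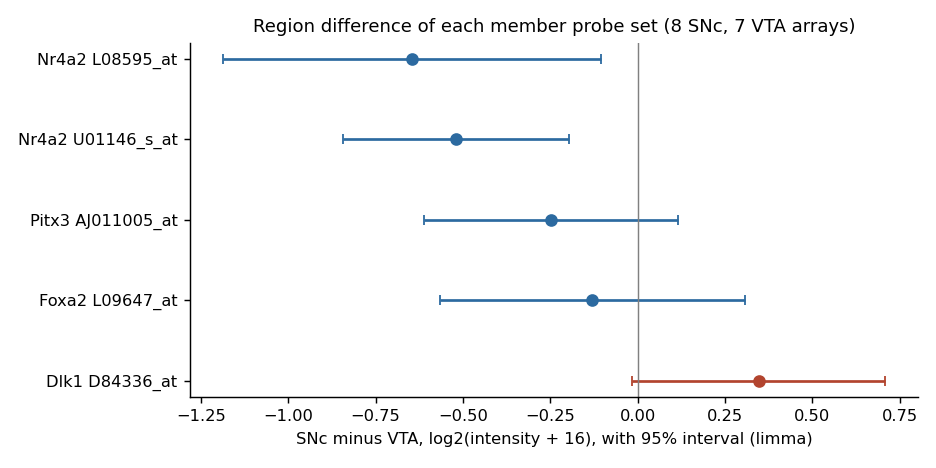
Log2 difference, SNc minus VTA, of each member probe set with its 95% interval from limma over 8 SNc and 7 VTA arrays (points left of 0 are higher in VTA). Both Nr4a2 intervals end below 0, at -0.10 and -0.20, and those of Pitx3, Foxa2 and Dlk1 include 0, although no probe set passed after adjustment over all 5244.

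The question of whether Dlk1 follows the factors was then put across arrays, with L08595_at standing for Nr4a2 because it was the brighter of its probe sets. Each factor was related to Dlk1 over all 15 arrays, within each region, and over 15 arrays after centring each region on its mean, which made 12 relations. None passed after Benjamini-Hochberg adjustment: the smallest adjusted p was 0.618 for Pearson's r and 0.716 for Spearman's rho.

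The relation of Nr4a2 with Dlk1 was negative in sign, also within SNc, but within the spread between arrays. Over 15 arrays r was -0.511 (permutation p = 0.0565, adjusted p = 0.618) and rho was -0.489 (permutation p = 0.0665, adjusted p = 0.716). The regions differed in opposite directions for both genes, and with each region centred r was -0.341 (permutation p = 0.188, adjusted p = 0.618) and rho was -0.361 (permutation p = 0.179, adjusted p = 0.716). Within SNc r was -0.589 (n = 8, exact permutation p = 0.136), and without SNc arrays 3 and 4, the farthest from the Dlk1 median, it was -0.122. Within VTA r was -0.0367 (n = 7, exact permutation p = 0.944), and -0.265 without VTA arrays 2 and 5. Without SNc array 4 and VTA array 2, the pooled r was -0.419 and the centred r was -0.307. The other Nr4a2 probe set, U01146_s_at, gave a pooled r of -0.428 (permutation p = 0.110, adjusted p = 0.807) and a centred r of -0.128 (permutation p = 0.675, adjusted p = 0.924), with r = -0.510 within SNc and 0.104 within VTA.

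For Pitx3 and Dlk1 the coefficients over all arrays were close to 0, with r = 0.0554 (permutation p = 0.843, adjusted p = 0.944) and rho = 0.0393 (permutation p = 0.892, adjusted p = 0.906). With regions centred r was 0.295 (permutation p = 0.269, adjusted p = 0.645) and rho was 0.239 (permutation p = 0.404, adjusted p = 0.867). Within SNc r was 0.488 (n = 8, exact permutation p = 0.206), which became -0.520 without SNc arrays 3 and 4, so its sign rested on those arrays. Within VTA r was 0.0908 (n = 7, exact permutation p = 0.886), and 0.415 without VTA arrays 2 and 5. The pooled r also changed sign, to -0.100, without SNc array 4 and VTA array 2, and the centred r was then 0.0784.

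For Foxa2 and Dlk1 no coefficient passed either, with r = -0.120 (permutation p = 0.673, adjusted p = 0.944) and rho = -0.200 (permutation p = 0.474, adjusted p = 0.867) over all 15. With regions centred r was -0.0477 (permutation p = 0.864, adjusted p = 0.944) and rho was -0.100 (permutation p = 0.722, adjusted p = 0.867). Within SNc r was -0.0395 (n = 8, exact permutation p = 0.924) and within VTA -0.0649 (n = 7, exact permutation p = 0.882). These values also moved with the arrays left out: without SNc array 4 and VTA array 2 the pooled r was -0.311 and the centred r -0.257. It was -0.386 within SNc without arrays 3 and 4, and -0.701 within VTA without arrays 2 and 5.

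**Figure D2:**
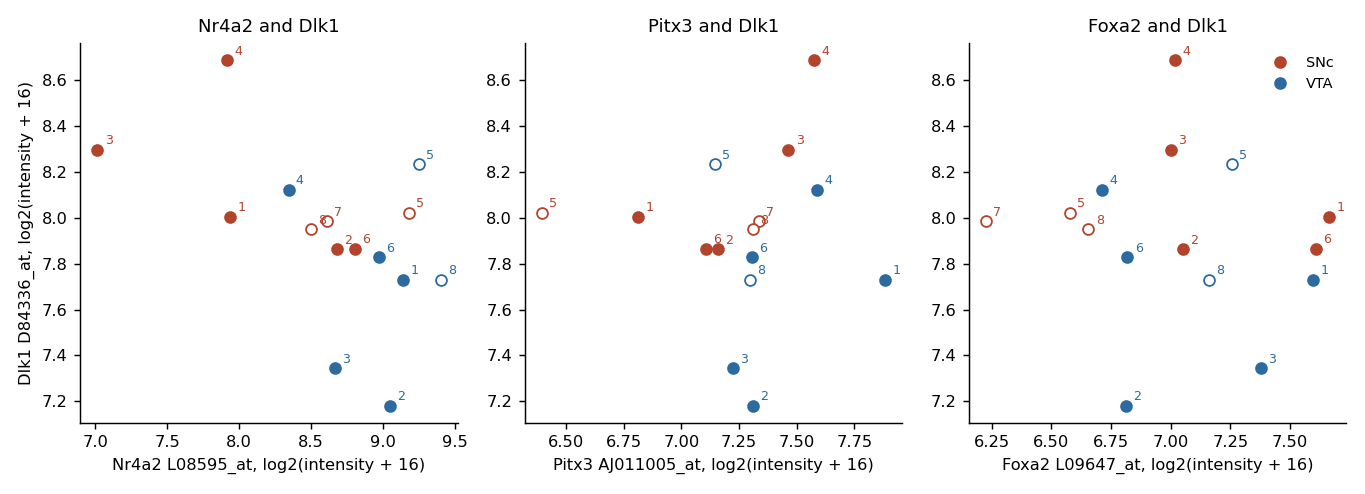
Dlk1 (vertical axis) against Nr4a2 L08595_at, Pitx3 and Foxa2 (horizontal axes), all as log2(intensity + 16), with 1 point per array, numbered by replicate, in red for SNc and blue for VTA; open circles are the 5 arrays with the highest spiked-in control signal. SNc arrays 3 and 4 lie at the upper left of the Nr4a2 panel, and r over the 15 arrays is -0.511, 0.0554 and -0.120 from left to right.

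Among the 10 pairs of member probe sets, that of Nr4a2 U01146_s_at with Pitx3 had the smallest p. With regions centred their r was -0.604 (permutation p = 0.0128, adjusted p = 0.128) and rho was -0.550 (permutation p = 0.0384, adjusted p = 0.384), so the relation was negative and did not pass the adjustment. The sign was the same within SNc (r = -0.710, n = 8) and within VTA (r = -0.566, n = 7), and r was -0.594 without VTA arrays 2 and 5. For the other Nr4a2 probe set and Pitx3 the centred r was -0.478 (permutation p = 0.123, adjusted p = 0.617) and rho was -0.382 (permutation p = 0.179, adjusted p = 0.597), with r = -0.253 without SNc arrays 3 and 4. Between regions the direction was the other way: both genes had their higher mean in VTA.

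The members were also set against 4 dopamine genes with high signals, a choice made after the values were seen: Th, the rate-limiting enzyme of dopamine synthesis, Ddc, Slc18a2, the vesicular transporter that loads dopamine into vesicles, and Slc6a3, the plasma membrane dopamine transporter. None of the 20 centred relations passed adjustment. The smallest p was for Nr4a2 L08595_at with Slc18a2, at r = 0.739 (permutation p = 0.0058, adjusted p = 0.116) and rho = 0.657 (permutation p = 0.0128, adjusted p = 0.114). It was positive within SNc (r = 0.768) and within VTA (r = 0.651), and r was 0.705 without SNc arrays 4 and 5. U01146_s_at gave r = 0.568 with Slc18a2 (permutation p = 0.0208, adjusted p = 0.138) and rho = 0.636 (permutation p = 0.0146, adjusted p = 0.114). Slc18a2 itself had nearly equal means, 3118 ± 1060 (SD, n = 8) in SNc and 3031 ± 660.9 (SD, n = 7) in VTA. Pitx3 had the opposite sign, r = -0.673 (permutation p = 0.0143, adjusted p = 0.138) and rho = -0.629 (permutation p = 0.0171, adjusted p = 0.114) with Slc18a2, and r was -0.356 without SNc arrays 4 and 5. This relation was stronger within SNc (r = -0.818) than within VTA (r = -0.282). For Dlk1 the strongest of the 4 was Th, with r = 0.543 (permutation p = 0.0565, adjusted p = 0.282), rho = 0.539 (permutation p = 0.0513, adjusted p = 0.223), and r = 0.390 without SNc array 2 and VTA array 5.

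Measures of the arrays themselves moved with some of these values. Bacterial and phage RNAs are spiked in before hybridization as controls, and their mean signal ran from 733.8 to 2253 in SNc and from 1030 to 2674 in VTA, with no difference between regions beyond the spread (exact permutation p = 0.666, adjusted p = 0.727 over 12 array measures). This measure was set against the members after the values were seen, and none of the 20 centred relations with it, the median signal and the 3 to 5 ratios of actin and GAPDH, a sign of RNA quality, passed adjustment. For Nr4a2 L08595_at the relation was positive, with r = 0.635 (permutation p = 0.0117, adjusted p = 0.197; SNc 0.619, VTA 0.772) and rho = 0.657 (permutation p = 0.00673, adjusted p = 0.135). For Pitx3 it was negative, with r = -0.605 (permutation p = 0.0197, adjusted p = 0.197; SNc -0.617, VTA -0.626) and rho = -0.639 (permutation p = 0.0135, adjusted p = 0.135). Without the 2 arrays farthest from the median control signal r was 0.651 and -0.465. The GAPDH ratio had r = 0.473 (permutation p = 0.0382, adjusted p = 0.220) and rho = 0.489 (permutation p = 0.0540, adjusted p = 0.270) with L08595_at, and r was 0.315 without VTA arrays 4 and 8. With Pitx3 it had r = -0.487 (permutation p = 0.0441, adjusted p = 0.220) and rho = -0.600 (permutation p = 0.0206, adjusted p = 0.138), and r was -0.557 without those arrays. Once the control signal was taken into account, the r of the GAPDH ratio was -0.0243 with L08595_at and -0.0486 with Pitx3. With Foxa2 it was then 0.770 instead of 0.294. The actin ratio had centred r between -0.319 and 0.207 with the 5 probe sets. Neither ratio differed between regions beyond the spread (exact permutation p = 0.569 for GAPDH and 0.211 for actin), and their part in the member values was not tested. The centred r with the control signal was 0.321 for U01146_s_at (SNc 0.343, VTA 0.309), -0.246 for Foxa2 (SNc -0.444, VTA 0.0605) and -0.203 for Dlk1 (SNc -0.736, VTA 0.223). For Foxa2 and Dlk1 the sign thus differed between the regions. Given the control signal, the centred r of L08595_at with Slc18a2 was 0.492 instead of 0.739, that of Pitx3 with Slc18a2 was -0.386 instead of -0.673, and that of U01146_s_at with Pitx3 was -0.543 instead of -0.604. That of U01146_s_at with Slc18a2 was 0.567 against 0.568, and that of Dlk1 with Th was 0.625 instead of 0.543. Given the control signal, the centred r with Dlk1 was -0.281 for Nr4a2, 0.221 for Pitx3 and -0.103 for Foxa2. In the 10 arrays without the 5 of highest control signal it was -0.511 (permutation p = 0.148, adjusted p = 0.443) for Nr4a2, 0.645 (permutation p = 0.0649, adjusted p = 0.390) for Pitx3 and -0.381 (permutation p = 0.293, adjusted p = 0.514) for Foxa2. The uncentred r of Nr4a2 with Dlk1 in those arrays was -0.692 (permutation p = 0.0290, adjusted p = 0.348). What sets the control signal was not tested.

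**Figure D3:**
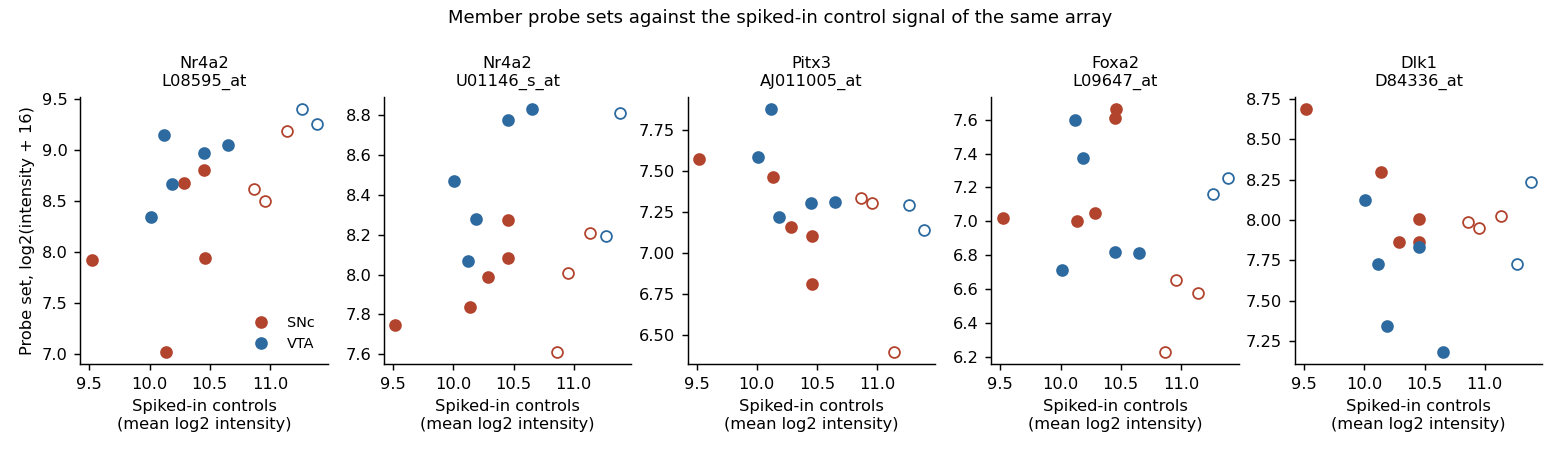
Each member probe set as log2(intensity + 16) (vertical axes, different ranges) against the mean log2 intensity of the spiked-in controls on the same array (horizontal axes), with 8 SNc arrays in red, 7 VTA arrays in blue and the 5 arrays with the most control signal open. Nr4a2 L08595_at goes up and Pitx3 goes down to the right in both regions, with centred r of 0.635 and -0.605.

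The region differences of both Nr4a2 probe sets were about as large with the control signal as a covariate, at -0.58 for L08595_at (limma, adjusted p = 0.183) and -0.50 for U01146_s_at (limma, adjusted p = 0.0946). In the 10 arrays without the 5 of highest control signal (SNc 5, 7 and 8 and VTA 5 and 8) they were -0.76 and -0.50. In those 5 arrays alone, 3 SNc against 2 VTA, they were -0.56 and -0.56. Foxa2 and Dlk1 were less even. Foxa2 ran from 58.9 to 84.8 on the 3 SNc arrays of high control signal and from 112.0 to 186.9 on the other 5, so its log2 difference was -0.72 in the 5 arrays and 0.20 in the other 10. The difference between these was -0.93 (SE 0.36; limma, adjusted p = 0.448), which did not pass, in a table where 0.0763% of probe sets did. Dlk1 had a log2 difference of 0.50 in the 10 arrays (limma, adjusted p = 0.199) and 0.00 in the 5 (limma, adjusted p = 0.997), and the test of the difference between these did not pass (limma, adjusted p = 0.680).

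Other cell types were checked by the summed signal of their markers. Dopamine neuron markers were high on all arrays, at 27010 to 33884 in SNc and 23210 to 33428 in VTA (exact permutation p = 0.268), and all 8 passed the filter on low signal. The sum covers differences of both directions: 5 had the higher mean in SNc and 3 in VTA. Gch1 passed with VTA higher (limma, adjusted p = 0.00163), and the other 7 did not pass. The summed GABA neuron markers were higher in SNc, at 953.6 to 1911 against 607.7 to 1149 (exact permutation p = 0.00249, adjusted p = 0.0298). Of 4 tested, Gad1, a GABA-making enzyme, and Pvalb, a calcium-binding protein, passed with SNc higher (limma, adjusted p = 0.00154 and 0.0282). Gad2 and the vesicular GABA transporter Slc32a1 had log2 differences of 0.23 and 0.07 (limma, adjusted p = 0.723 and 0.901), and Sst and Npy did not pass the filter. Gad1 was 753.5 ± 179.9 (SD, n = 8) in SNc and 279.1 ± 123.1 (SD, n = 7) in VTA, which is most of the difference in the sum. Oligodendrocyte markers summed to 5512 to 9772 in SNc and 7868 to 11545 in VTA (exact permutation p = 0.0280, adjusted p = 0.112). The markers of serotonin, noradrenaline and cholinergic neurons summed to 290.5 to 444.2 and 325.0 to 518.1 (exact permutation p = 0.0375, adjusted p = 0.112), and Tph1 and Dbh did not pass the filter. Astrocyte, microglia, vessel and glutamate neuron markers did not pass either (exact permutation p = 0.900, 0.503, 0.107 and 0.0889). Of these, Gja1, Itgam, Aif1, C1qb, Csf1r, Vwf, Slc17a7, Camk2a and Neurod1 did not pass the filter. That left 2 of 6 microglia markers and 1 of 4 glutamate neuron markers on the array above it. The median signal per array was 41.4 ± 3.04 (SD, n = 8) in SNc and 45.1 ± 1.73 (SD, n = 7) in VTA (exact permutation p = 0.0160, adjusted p = 0.0960). The part of these measures in the Nr4a2 and Dlk1 differences was not tested. With each array centred on its median, the log2 differences were -0.55 and -0.43 for the Nr4a2 probe sets and 0.44 for Dlk1.

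The genes around the 4 members were then read from the same fit, each by its brightest probe set, as 5 lists that overlap in a few genes. Of all 3221 genes 70 passed, or 2.17%, with 32 higher in SNc (0.993%) and 38 higher in VTA (1.18%), and the median log2 difference of all genes was -0.04. Of 40 other regulators of dopamine neuron development and partners of Nr4a2, 14 were on the array and 10 were tested. None passed, 7 had the higher mean in VTA under each of 3 scalings (as deposited, median-centred, quantile-normalized), and their median log2 difference was -0.27. Among them Cdkn1c, with a mean of 26.4 in SNc and 35.7 in VTA, reached the filter only through its VTA arrays. On the log scale of the filter its SNc mean lay below the limit that corresponds to 26.3. The count and median of this list are therefore a description. Rxrb, a retinoid X receptor of the kind Nr4a2 pairs with, had a signal of 70.0 ± 19.01 (SD, n = 8) in SNc and 95.1 ± 17.0 (SD, n = 7) in VTA, with a log2 difference of -0.39 (SE 0.16; limma, adjusted p = 0.236). Ncoa1, a coactivator of nuclear receptors, had 32.2 ± 16.3 and 51.7 ± 23.8 (log2 difference -0.50, SE 0.24; limma, adjusted p = 0.329).

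Known or proposed targets of Nr4a2 and Pitx3 went both ways. Of 22 in the list 18 were on the array and 16 were tested, 8 with the higher mean in each region (7 higher in VTA with median centring and 9 with quantile normalization) and a median log2 difference of 0.01. One of them, Spp1, reached the filter only through its SNc arrays on the log scale of the filter. Its mean signal was 95.9 in SNc and 38.2 in VTA, where the arrays ran from 6.27 to 193.8. The count and median are therefore a description. Gch1 and Crhbp passed with VTA higher and Sncg passed with SNc higher. Gch1, which makes the cofactor Th needs, was 463.3 ± 168.9 (SD, n = 8) in SNc and 1153 ± 290.6 (SD, n = 7) in VTA, 2.53-fold higher in VTA with no overlap (limma, adjusted p = 0.00163). The corticotropin-releasing hormone binding protein, Crhbp, was 101.8 ± 54.2 in SNc and 422.9 ± 140.6 in VTA, 4.02-fold higher in VTA, also with no overlap (limma, adjusted p = 0.00137). Sncg, gamma-synuclein, was 1700 ± 364.8 in SNc and 822.9 ± 232.0 in VTA, 2.07-fold higher in SNc (limma, adjusted p = 0.00293). Gch1 and Crhbp were on the side where Nr4a2 had its higher mean and Sncg was not, but the Nr4a2 difference itself did not pass. The list was chosen with earlier results of these data known, and whether Nr4a2 acts on these genes here was not tested.

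Dlk1 resembles Notch ligands in its extracellular part, and the Notch pathway was read as a list. Of 33 genes 19 were on the array and 13 were tested. None passed, 11 had the higher mean in VTA (10 with median centring or quantile normalization), and the median log2 difference was -0.26. Nrarp reached the filter only through its VTA arrays, with a mean of 24.8 in SNc and 42.7 in VTA. Hes5 in SNc (27.2) and Notch4 in VTA (27.4) lay close to the limit of 26.3. The count and median are therefore a description. Furin, a protease that cleaves the Notch precursor, had a signal of 149.1 ± 16.5 (SD, n = 8) in SNc and 105.2 ± 27.2 (SD, n = 7) in VTA, with a log2 difference of 0.48 (SE 0.15; limma, adjusted p = 0.126). Aph1a, a subunit of the gamma-secretase that releases the intracellular part of Notch, had 187.6 ± 64.1 and 269.1 ± 44.0 (log2 difference -0.53, SE 0.18; limma, adjusted p = 0.138).

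Of 41 genes imprinted in rodents, as Dlk1 is, 24 were on the array and 16 were tested, 11 with the higher mean in VTA (8 with median centring, 12 with quantile normalization) and a median log2 difference of -0.12. Calcr, the calcitonin receptor, passed with VTA higher (limma, adjusted p = 0.0137), but it reached the filter only through its VTA arrays, so its values are a description. Its signal was 15.4 ± 12.6 (SD, n = 8) in SNc and 52.3 ± 20.6 (SD, n = 7) in VTA, a log2 difference of -1.16. Calcr and Cdkn1c, which also reached the filter only through its VTA arrays, are part of the count and median of this list, which are a description too. Dio3, which lies in the same imprinted cluster as Dlk1, had 122.9 ± 18.4 in SNc and 127.6 ± 12.5 in VTA. This gene was picked for its place and not by the rule for named genes. Of 22 Nr4a, Pitx and forkhead relatives 12 were on the array and 8 were tested. None passed, all 8 had the higher mean in VTA (6 with median centring or quantile normalization), and the median log2 difference was -0.17. The signal of Nr4a3 was 51.4 ± 24.5 in SNc and 63.1 ± 12.1 in VTA, with a log2 difference of -0.31 (SE 0.21; limma, adjusted p = 0.533). That of Nr4a1 was 64.2 ± 19.9 and 77.6 ± 17.1, with a log2 difference of -0.24 (SE 0.18; limma, adjusted p = 0.551). Both are nuclear receptors of the same family as Nr4a2, induced by neuronal activity.

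**Figure D4:**
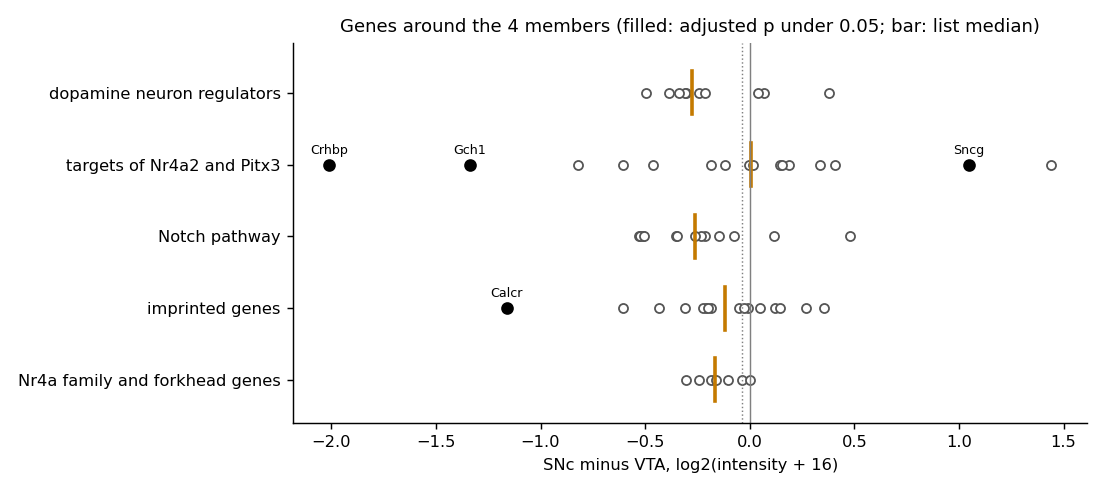
Log2 difference, SNc minus VTA, of each tested gene in 5 lists (circles; filled where the limma adjusted p is under 0.05), with the list median as an orange bar, 0 as a solid line and the median of all 3221 genes, -0.04, as a dotted line. The 4 filled genes are Crhbp, Gch1 and Calcr to the left, higher in VTA, and Sncg to the right, higher in SNc. Calcr, Cdkn1c and, in the Notch list, Nrarp reached the filter on low signal only through their VTA arrays, and Spp1 only through its SNc arrays.

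Finally, the 5 genes most like each member were taken from 3217 candidates by Pearson's r over 15 arrays after region centring, as a description, since the highest of so many values is large in any table of this size. All arrays were scaled to the same level, but the control signal described above varied between them, so r given that signal is also printed for the gene most like each member. For Nr4a2 they were Shh, a secreted signal of the floor plate (r = 0.872), Fdps, an enzyme of cholesterol synthesis (0.869), Atp5f1c, a subunit of ATP synthase (0.838), Iqgap2 (0.836) and the adhesion molecule Ncam1 (0.809). For Pitx3 they were Aopep (0.855), Zfp697 (0.839), the thyroid hormone receptor Thra (0.834), Cdkn2aipnl (0.811) and the dynein heavy chain Dync1h1 (0.809). For Foxa2 they were Pcmt1, which repairs damaged proteins (0.767), Rpl36al1 (0.760), Stard3 (0.726), Hmga1 (0.722) and Hnrnpc (0.720). For Dlk1 they were Atp9a (0.832), Ncdn (0.811), the neuronal phosphatase Ptpn5 (0.777), the proteasome subunit Psmb1 (0.771) and the tubulin Tubb5 (0.764). Given the control signal, r was 0.775 for Nr4a2 with Shh, 0.809 for Pitx3 with Aopep, 0.755 for Foxa2 with Pcmt1 and 0.830 for Dlk1 with Atp9a. None of the 20 genes differed between the regions after adjustment (limma, lowest adjusted p = 0.126, for Pcmt1).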

How the data were processed

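Total RNA of laser-captured rat neurons was measured on 15 arrays, 8 SNc and 7 VTA by the labels' descriptions. The deposited values are linear intensities, 1 for each probe set on each array. By their values the authors had scaled them, since the 2% trimmed mean was 150.2 on every array. How the scanner data became intensities is not given in the sources used here. Of 8799 probe sets 59 are controls, and of the other 8740 the 40% with the lowest mean log2(intensity + 16) were left out, a limit that corresponds to a signal of 26.3. The remaining 5244 were fitted as log2(intensity + 16) with limma 3.58.1 in R 4.3.3 (lmFit, eBayes, two-sided, Benjamini-Hochberg, threshold 0.05), region as the only term. Exact permutation tests used all 6435 splits of the arrays. Correlations used 100000 resamples over 15 arrays and exact pairings within a region (Python 3.11.15, scipy 1.17.1). The fit was tested on simulated data.

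The members and lists were chosen with earlier results of these data known. Named by rule were all member probe sets, list genes past the threshold or otherwise the 2 with the smallest p, and the 5 genes most like each member. Positions and sequences come from RefSeq tables of GRCr8, which is not the array's build. Alternatives tried were no filter or one of 60%, offsets of 1 and 64, median centring, quantile normalization, leaving out each array, array weights, the replicate number as a block, and a robust, trended variance. The spiked-in control signal as a covariate and the fits without or with only the 5 arrays highest in it were added after seeing the data.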

Additional observations from a re-analysis of the deposited data

How the results depend on the processing

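None of the 5 member probe sets passed the adjusted threshold under any of the 29 alternatives, and the lowest adjusted p was 0.0564, for Nr4a2 U01146_s_at with an offset of 64 (limma, range 0.0564 to 0.865 over its alternatives, the highest in the 5 arrays of highest spiked-in signal alone). Both Nr4a2 probe sets and Pitx3 stayed higher in VTA under all 29. The exact permutation test, the other filters and the trended variance change only the p, so under these the difference could not move. In the fit on only the 5 arrays of highest spiked-in signal the log2 difference of Dlk1 was 0.00, and it was higher in SNc under the other alternatives. With each array left out in turn, the log2 differences ranged from -0.77 to -0.46 for L08595_at, -0.59 to -0.46 for U01146_s_at, -0.31 to -0.14 for Pitx3, -0.23 to -0.02 for Foxa2 and 0.25 to 0.43 for Dlk1. Foxa2 reversed, to 0.20, without the 5 arrays of highest spiked-in signal.

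The count of all probe sets called, 104, was 56 with an offset of 1, 184 with array weights, 204 without the 5 arrays of highest spiked-in signal and 3 in those 5 alone, which leaves 3 arrays against 2. It ranged from 56 to 115 when 1 array was left out, and lay between 56 and 69 without SNc array 2, 3 or 4 or VTA array 1, 2, 3, 5 or 6. Weak correlations changed sign: Foxa2 with Dlk1 was 0.0541 over all arrays and 0.0939 region-centred with median centring, and -0.180 to 0.0535 region-centred with an array left out; without SNc 6, VTA 3 or VTA 4 it was 0.0443, 0.0225 and 0.0535. Pitx3 with Dlk1 was -0.116 without SNc array 4, within -0.116 to 0.151, and -0.100 without the 2 arrays farthest from the Dlk1 median. The causes were not tested.

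Replicate numbers are shared by both regions. Same-numbered arrays correlated at 0.0439 to 0.254 in their deviations from the region means, 2 of 7 pairs under 0.1, and 3 of 7 numbers matched best with their own. Whether a number marks a pair was not tested. With the replicate number as a random block 153 probe sets were called. As a fixed block, which leaves out SNc array 7 because VTA has no such number, 99 were called, against 115 without that array and no block. Under the fixed block L08595_at was at -0.69 (limma, adjusted p = 0.103) and U01146_s_at at -0.47 (limma, adjusted p = 0.118). Leaving out SNc array 7 alone gave the same differences (limma, adjusted p = 0.203 and 0.127). No member call changed.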
